A study of Mus musculus with 12 samples.

Results

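The acid lipases are a small family of secreted or lysosomal enzymes that release fatty acids from triglycerides and cholesteryl esters, and most of them lie side by side on mouse chromosome 19. Described here are Lipn, its chromosomal neighbours Lipm, Lipk, Lipf and Lipa, and 2 lipases of the lipoprotein and phospholipase branch, Lipg and Liph, in mouse liver with raised ChREBP. These 7 genes, of 19938 measured, were chosen by name with the difference of Lipn between the groups already known. Each had 1 row on the array whose annotation gives that symbol alone.

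Lysosomal acid lipase, encoded by Lipa, opens lipoprotein and lipid droplet cargo inside the lysosome and is the main acid lipase of hepatocytes and macrophages. Lipn, Lipm and Lipk belong to the same branch but are known from the skin, where the human genes are active in the outer epidermis and inherited loss of LIPN causes a form of ichthyosis. Lipf is the acid-stable lipase of the stomach. Lipg (endothelial lipase) is anchored on vessel walls and cleaves phospholipids of high-density lipoprotein, whereas Liph releases lysophosphatidic acid from phosphatidic acid.

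Liver RNA was profiled from male C57BL/6J mice that had received an adenovirus encoding ChREBP (6 mice) or GFP (6 mice) in the tail vein. All 12 mice were fed when taken, 3 weeks after injection, and their age is labelled as 8 weeks, which may be the age at injection. ChREBP, the product of Mlxipl, is a glucose-responsive transcription factor that drives glycolytic and lipogenic genes in hepatocytes. The GFP mice carried the same kind of vector without ChREBP, and no mouse without virus was studied. The labels do not say which species or isoform of ChREBP the vector encoded. Whole liver was used, so more RNA per cell and more cells of a type cannot be told apart. Values are log2 values from robust multi-array averaging (RMA), with 1 array per mouse, and every difference is ChREBP minus GFP on that scale. Levels of different genes are not set against each other, since each probe set has its own response.

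Mlxipl stood at a mean level of 10.89 ± 0.08 in ChREBP livers and 9.32 ± 0.23 in GFP livers (SD, n = 6 each), a 2.98-fold difference with no overlap (exact permutation test, two-sided, p = 0.00216, the smallest this design allows). The array does not separate vector transcript from the mouse gene. Correlations between arrays were 0.981 to 0.997 within a group and 0.964 to 0.983 across groups. Some arrays were high in marker transcripts of other tissues, whose source was not tested. Pancreatic acinar markers averaged 11.9 and 12.1 on arrays ChREBP 5 and ChREBP 4, against 5.46 to 7.09 on the other ChREBP arrays and 5.53 to 5.74 on GFP arrays, and all 16 were highest on those 2 arrays. Epidermal genes averaged 6.56 on GFP 6, against 5.55 to 5.71 on ChREBP arrays and 5.49 to 5.54 on the other GFP arrays. The adipocyte marker Adipoq was highest on ChREBP 6 (9.02), GFP 4 (8.52) and GFP 6 (8.32). The adipocyte list was less uniform. Of its 7 markers, 4 were higher on ChREBP 6 than on any other ChREBP array. On GFP 4 and GFP 6, 3 of the 7 were above all other GFP arrays. Of the hepatocyte markers, 9 of 11 were past the test used below and lower, where 13.7% of all genes were, with the list averaging 12.2 to 12.3 on ChREBP arrays and 12.5 to 12.6 on GFP arrays.

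Lipn carried by far the largest difference of the family. Its level was lowest at 7.89, at the median 8.32 and highest at 8.64 in ChREBP livers, against 4.06, 4.21 and 4.45 in GFP livers. Every ChREBP array thus lay at least 3.44 above every GFP array, a gap several times the spread within either group. The means were 8.30 ± 0.30 and 4.25 ± 0.15 (SD, n = 6 each), and the difference of 4.05 (SE 0.12) is 16.6-fold in measured values. It was the fifth largest positive difference among all 19938 genes. The GFP mean lies close to the 10th percentile of gene means on these arrays (4.22), and without detection calls it is not known whether Lipn was above background there, so the fold is that of the array signal. Within the ChREBP group the order ran from ChREBP 2 (8.64), ChREBP 1 (8.55) and ChREBP 4 (8.49) down to ChREBP 3 (8.15), ChREBP 5 (8.09) and ChREBP 6 (7.89), and the arrays high in pancreatic transcripts fell on both sides of the median. Since Lipn was chosen for this contrast, these values are a description and no test is given. Over 24 other ways of processing or subsetting the arrays, the difference stayed between 3.98 and 4.13. Several of these could not move it by construction, such as analysis of variance, trended moderation or the mean of rows for a gene with 1 row.

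**Figure D1:**
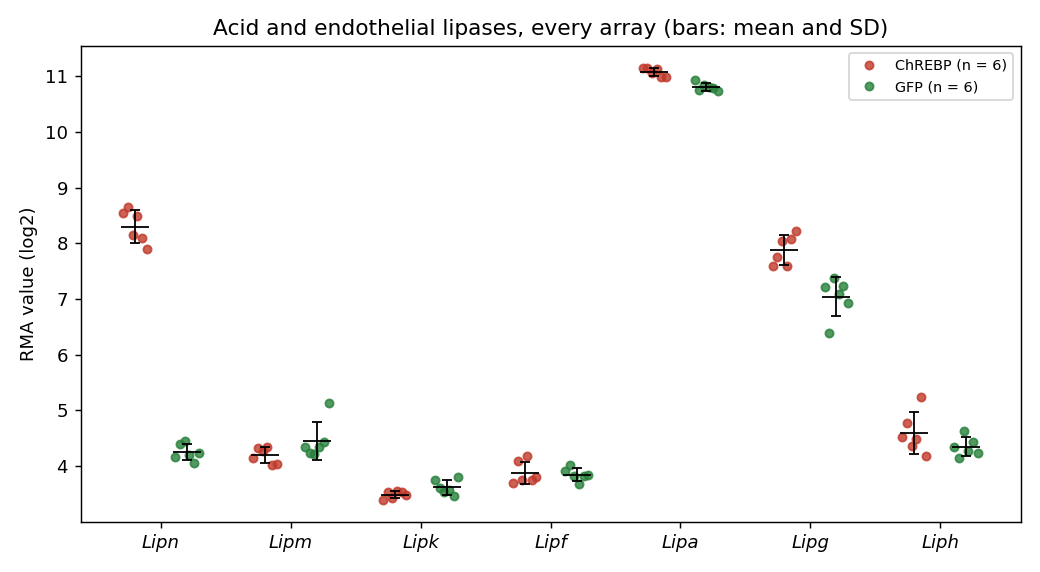
RMA value (log2, vertical axis) of the 7 lipases on every array, ChREBP arrays in red to the left of GFP arrays in green, with bars for the mean and SD (n = 6 each). Lipn lies between 7.89 and 8.64 in ChREBP livers and between 4.06 and 4.45 in GFP livers, whereas Lipm, Lipk, Lipf and Liph overlap between the groups.

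The letters upstream of Lipn are shown beside those of its neighbour Lipm and of Lipa, the lysosomal member, because the first of these genes differed between the groups by 4.05 and the second by -0.26 although they adjoin on the same strand. Each run is the 250 bases before the annotated start site, from RefSeq on build GRCm38.p6, 5′ to 3′ on the gene's own strand. The windows lie at chr19:34067108-34067357 (plus strand) for Lipn, chr19:34100693-34100942 (plus strand) for Lipm and chr19:34527475-34527724 (minus strand) for Lipa. Capitals mark matches to the motifs searched.
Lipn: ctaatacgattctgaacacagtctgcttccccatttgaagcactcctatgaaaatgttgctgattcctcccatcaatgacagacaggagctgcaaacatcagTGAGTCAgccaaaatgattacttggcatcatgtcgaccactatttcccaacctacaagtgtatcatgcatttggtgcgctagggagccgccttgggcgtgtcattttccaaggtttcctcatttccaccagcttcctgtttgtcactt
Lipm: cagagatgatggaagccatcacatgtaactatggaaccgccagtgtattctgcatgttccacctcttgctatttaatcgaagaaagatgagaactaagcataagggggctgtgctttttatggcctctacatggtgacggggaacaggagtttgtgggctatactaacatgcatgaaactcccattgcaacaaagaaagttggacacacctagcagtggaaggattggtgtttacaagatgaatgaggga
Lipa: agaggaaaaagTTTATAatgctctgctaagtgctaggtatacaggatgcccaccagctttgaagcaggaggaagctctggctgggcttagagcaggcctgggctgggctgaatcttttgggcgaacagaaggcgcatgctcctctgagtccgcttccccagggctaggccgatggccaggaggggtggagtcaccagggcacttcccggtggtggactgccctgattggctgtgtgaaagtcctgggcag

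Both strands of each window were searched for the E-box CACGTG and for an exact pair of E-boxes (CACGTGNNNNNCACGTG). The pair has the spacing of the carbohydrate response element, to which ChREBP binds with its partner Mlx. Also searched were the antioxidant response element TGACNNNGC, AP-1 (TGAGTCA), a direct repeat of nuclear receptor half-sites (AGGTCANAGGTCA) and TATAAA. Letters for AP-1 and the antioxidant element were added after the Lipn window had been seen, and a window can match more than one motif. Of 32851 windows of the same length, 6.02% held the E-box, 10.2% the antioxidant element, 4.46% AP-1, 12.4% TATAAA, 0.0335% the direct repeat and 0 the paired element. No window of any gene held the exact pair, so its absence here tells nothing of ChREBP binding. The Lipn window held 1 match, AP-1 at positions -148 to -142 from the start site. The Lipa window held a TATAAA match on the opposite strand at -239 to -234. No E-box stood in the windows of Lipn, Lipm, Lipa, Lipf or Liph, which says only that those letters are not in these 250 bases. Windows of Lipk and Lipg are not described here. GC content was 46% for Lipn, 44.4% for Lipm and 58% for Lipa.

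The difference of Lipn was not shared by the genes on either side of it. In chromosome order the measured genes are Lipf, Lipk, Lipn, Lipm, Ankrd22, Stambpl1, Acta2, Fas, Ch25h and Lipa. Lipk, the nearest measured gene before Lipn, had levels of 3.39, 3.51 and 3.55 (lowest, median and highest) in ChREBP livers and 3.46, 3.59 and 3.81 in GFP livers. The groups overlapped and the difference was -0.13 (SE 0.06). Lipm, the next gene after Lipn, had levels of 4.03, 4.21 and 4.35 in ChREBP livers and 4.22, 4.35 and 5.13 in GFP livers. Its difference of -0.26 (SE 0.13) was -0.12 without GFP 6, and 5 of the 6 GFP arrays lay between 4.22 and 4.44. Lipf, at the far end of the cluster, had levels of 3.70, 3.78 and 4.18 in ChREBP livers and 3.68, 3.83 and 4.03 in GFP livers, with a difference of 0.03 (SE 0.09) whose sign turned in 4 of 23 alternatives. The lncRNA Gm31300, annotated between Lipk and Lipn, was not analysed here.

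Lipa, at the other end of the stretch, was higher by a small and even margin. Its level was 10.98, 11.09 and 11.15 in ChREBP livers (lowest, median and highest) and 10.73, 10.80 and 10.94 in GFP livers. The groups did not overlap, but the closest pair, ChREBP 5 and GFP 1, stood only 0.04 apart. The means of 11.07 ± 0.08 and 10.81 ± 0.07 gave a difference of 0.26 (SE 0.05), or 1.20-fold, and alternatives gave 0.24 to 0.29.

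**Figure D2:**
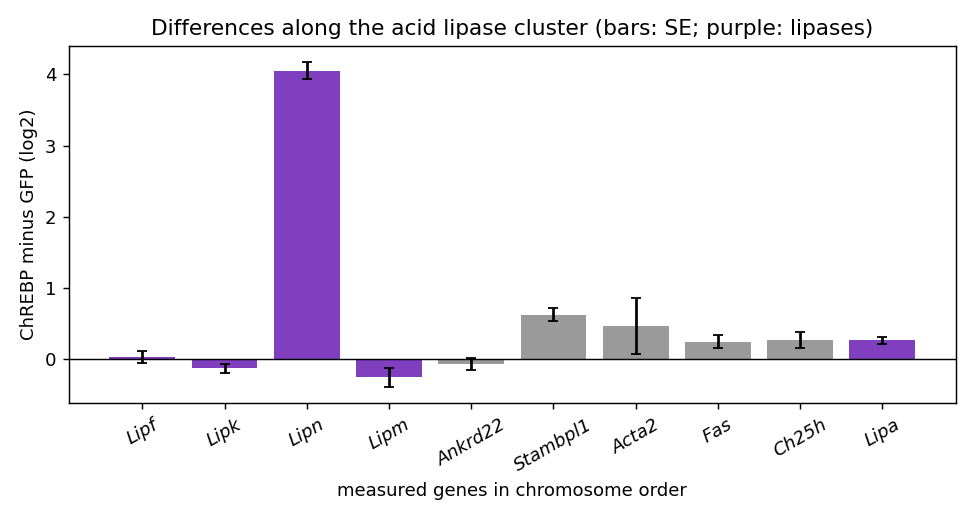
Difference of each measured gene (ChREBP minus GFP, log2, vertical axis) along the acid lipase stretch of mouse chromosome 19, in chromosome order and without distances, with bars for the SE of 12 arrays. The 5 lipases are purple, and Lipn at 4.05 stands alone, with its neighbours Lipk at -0.13 and Lipm at -0.26.

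Of the genes between Lipm and Lipa that are not lipases, only Stambpl1, which encodes a deubiquitinase, passed the test across all genes. Its mean level was 7.10 ± 0.18 in ChREBP livers and 6.48 ± 0.16 in GFP livers (difference 0.62, SE 0.09, limma adjusted p = 0.000156). Ankrd22 (-0.07, adjusted p = 0.546), the smooth muscle actin gene Acta2 (0.46, adjusted p = 0.411), the death receptor gene Fas (0.24, adjusted p = 0.064) and the cholesterol 25-hydroxylase gene Ch25h (0.27, adjusted p = 0.0888) did not. Fas passed in 5 of 24 alternatives and Ch25h in 1.

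Lipg, on another chromosome, was the second of the family in size of difference. The enzyme is made by endothelial cells and, in liver, also by hepatocytes. Its level was 7.58, 7.90 and 8.21 in ChREBP livers (lowest, median and highest) and 6.39, 7.16 and 7.37 in GFP livers. The groups did not overlap, with 0.22 between the highest GFP array and the lowest ChREBP array, and GFP 2 (6.39) lay well below the other GFP arrays (6.93 to 7.37). The means were 7.88 ± 0.27 and 7.04 ± 0.35, and the difference of 0.84 (SE 0.16) is 1.79-fold. It was 0.71 without GFP 2, the lowest of all alternatives. Of 16 endothelial markers, 12.5% passed, fewer than the 27.0% of all genes. Lyve1 was higher (0.57, limma adjusted p = 0.0134) and Dnase1l3 lower (-0.30, adjusted p = 0.0483, lost in 15 of 24 alternatives). The list averaged 7.58 to 8.16 on ChREBP arrays and 7.82 to 7.93 on GFP arrays. After removal of the group means, Lipg and that list correlated at r = 0.40 over 12 arrays.

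Liph, the phospholipase A1, had levels of 4.18, 4.51 and 5.24 in ChREBP livers and 4.14, 4.31 and 4.63 in GFP livers, which overlap. The mean difference of 0.25 (SE 0.15) was 0.12 without ChREBP 5, the array with the highest Liph level. The same array had the highest mean of 7 cholangiocyte markers (7.01, against 6.09 to 6.45 on the other ChREBP arrays and 5.73 to 6.37 on GFP arrays). Of that list, 3 markers passed, all higher, beside 27.0% of all genes. The median difference of the list was 0.40, and 0.41 without ChREBP 5. Deviations of Liph from its group means correlated at 0.58 with that list, 0.55 with 16 acinar markers, 0.52 with 16 endothelial markers and -0.72 with 11 hepatocyte markers over the 12 arrays. ChREBP 5 was also high in acinar (11.9) and highest in endothelial (8.16) list means. The part of these cells in the value of Liph was not tested.

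In all, 3 of the 7 lipases (Lipn, Lipg and Lipa) were past an adjusted p of 0.05 in limma, all higher in ChREBP livers, where 27.0% of all genes were past it (13.3% higher and 13.7% lower). The same 3 had groups that did not overlap, as did 15.2% of all genes (8.33% with ChREBP higher and 6.83% with ChREBP lower). Because the family was assembled around one of these values, nothing is read from the count. The median difference was 0.25 for the 7 and -0.04 for all genes. Lipk, Lipm, Lipf and Liph were among the 25% of genes with the lowest mean over all arrays, where 8.24% passed and the median difference was -0.06. No detection calls were used here, so none of these genes is called absent.

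Epidermal transcripts stood high on 1 array, and the skin members of the family were set beside them. On GFP 6, 16 of 20 epidermal genes lay above every other GFP array. Examples, chosen after their values were seen, are the cornified envelope gene Lor (8.65, against 4.80 to 5.27 on ChREBP arrays and 4.68 to 5.32 on the other GFP arrays), the protease gene Asprv1 (9.04, against 5.61 to 5.98 on ChREBP arrays and 5.48 to 5.87 on the other GFP arrays) and the basal keratin gene Krt5 (7.79, against 4.91 to 5.20 on ChREBP arrays and 4.97 to 5.33 on the other GFP arrays). Lipm was also highest on GFP 6 (5.13), and so was Lipk (3.81). Lipn was not, with 4.23 on GFP 6 in a GFP range of 4.06 to 4.45. Deviations from group means correlated with the epidermal list at 0.93 for Lipm, 0.68 for Lipk and 0.08 for Lipn over 12 arrays. Over the 11 arrays without GFP 6, these were 0.61, 0.39 and 0.66. The other members gave 0.85 (Lipf), 0.64 (Lipa), 0.11 (Liph) and -0.32 (Lipg) over those 11 arrays. Such r were thus not particular to the skin members. The arrays share their normalization, and these r are given as description only.

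**Figure D3:**
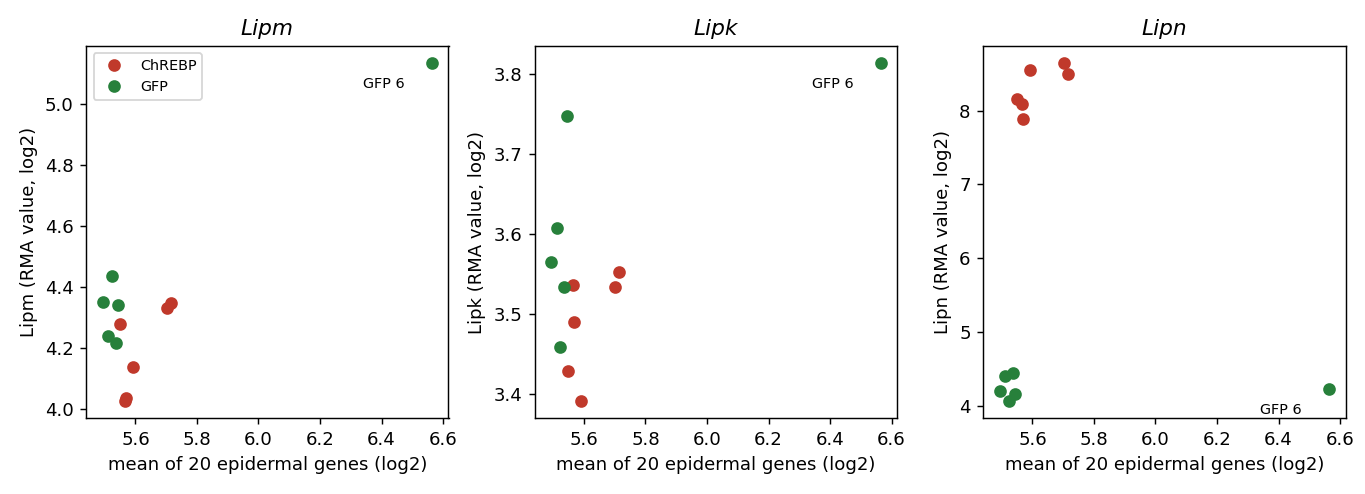
RMA value (log2, vertical axes) of Lipm, Lipk and Lipn against the mean log2 value of 20 epidermal genes (horizontal axes) on 6 ChREBP arrays (red) and 6 GFP arrays (green). GFP 6, at an epidermal mean of 6.56, has the highest Lipm (5.13) and Lipk (3.81) but a Lipn level (4.23) like that of the other GFP arrays.

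Of the 20 epidermal genes, 1 was higher in ChREBP livers and 5 were lower, beside the 27.0% of all genes that passed, and the median difference was -0.24 (-0.06 without GFP 6). The gene that rose was Sprr1a, a cornified envelope gene, with a mean level of 9.70 ± 0.60 in ChREBP livers and 6.75 ± 1.08 in GFP livers (difference 2.95, SE 0.43, limma adjusted p = 0.000157). Pnpla1 (-0.24, adjusted p = 0.00178), Tgm1 (-0.42, adjusted p = 0.00996), Casp14 (-0.23, adjusted p = 0.0126), Cers3 and Cdsn fell, of which Cers3 was lost in 11 of 23 alternatives and Cdsn in 14 of 24. The defining keratins Krt1 (-0.08), Krt10 (0.03), Krt5 (-0.49) and Krt14 (-0.13) did not pass, and without GFP 6 the last 2 were -0.055 and 0.045. For Lipf, 2 of 13 stomach markers passed, both lower (Atp4a, -0.37, and Pga5, -0.19, the second lost in 14 of 24 alternatives). The list averaged 5.37 to 5.93 on ChREBP arrays and 5.49 to 5.58 on GFP arrays. Its highest means, 5.93 and 5.70, lay on ChREBP 4 and ChREBP 5, the arrays high in acinar markers. There Tff2 stood at 10.62 and 10.39, against 5.89 to 6.55 on the other ChREBP arrays. Deviations of Lipf correlated at 0.56 with the stomach list over 12 arrays.

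Among themselves the 7 lipases varied together only loosely once the group means were removed. Of 21 pairs over 12 arrays, the highest r was 0.58 (Lipn with Lipa), followed by 0.57 (Lipk with Lipm) and 0.50 (Lipn with Lipf). The lowest was -0.62, for Lipn with Lipg, so arrays above their group mean for Lipn tended to lie below it for Lipg. Within the ChREBP livers, ChREBP 6 had the lowest Lipn (7.89) and the highest Lipg (8.21).

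The level of each lipase was also set against that of Mlxipl inside each group, a relation the choice of genes did not use. Of 14 relations (n = 6 each, exact permutation tests, two-sided), Pearson's r ran from -0.68 to 0.83. Only Lipm in ChREBP livers was below an unadjusted p of 0.05 (r = 0.83, exact p = 0.0181, adjusted p = 0.253; Spearman's coefficient 0.77, exact p = 0.103, adjusted p = 0.719), and r was 0.38 without the 2 arrays farthest from the median of Mlxipl. For Lipn in ChREBP livers, r was 0.61 (exact p = 0.207, adjusted p = 0.531) and Spearman's coefficient 0.54 (exact p = 0.297, adjusted p = 0.919), and r was -0.78 without those 2 arrays. No relation passed after adjustment, and Mlxipl itself spanned only 0.22 in ChREBP livers.

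Genes whose array-to-array pattern was most like that of Lipn were sought among 17042 genes. After removal of the group means, the nearest by Pearson's r over 12 arrays were Arhgap11a (r = 0.89, Spearman's coefficient 0.85), the vitamin transporter gene Slc5a6 (r = 0.88, Spearman's 0.94), the cytokine gene Clcf1 (r = 0.88, Spearman's 0.94), the hexose transporter gene Slc2a6 (r = 0.87, Spearman's 0.83) and the glutathione transferase gene Gstm1 (r = 0.87, Spearman's 0.89). Over the 12 arrays as such, where the difference between the groups dominates, the nearest were Arhgap11a (r = 0.997), Slc22a27 (r = 0.997), Mybl1 (r = 0.996), Apoa4 (r = 0.994) and Apela (r = 0.994). For Lipa the nearest after removal of the group means were Isca2 (r = 0.90), Glmn (r = 0.90) and Serinc2 (r = 0.89), and for Lipg they were Vps4a (r = 0.92), Ell2 (r = 0.92) and Unc50 (r = 0.91). With so many genes and 12 arrays, r of this size is a ranking and nothing more.

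Beyond the 7, 6 of 12 listed relatives were measured, and 2 of them rose and 1 fell beside the 27.0% of all genes that passed. The median difference of 0.92 was 0.22 without ChREBP 4 and ChREBP 5. Lipc, Pnlip and 4 further Lipo genes on that list were not analysed here. Lpl (lipoprotein lipase), which acts on vessel walls like Lipg, had levels of 9.48, 9.58 and 10.13 in ChREBP livers (lowest, median and highest) and 7.81, 8.26 and 8.83 in GFP livers. No GFP array reached the lowest ChREBP array, and the difference was 1.35 (SE 0.17, 2.54-fold, limma adjusted p = 5.12e-05). Deviations of Lpl correlated at 0.78 with 7 adipocyte markers, and its difference was 1.50 with ChREBP 6, GFP 4 and GFP 6 left out, a choice made after seeing the data. Lipo3, an acid lipase of the same chromosome, was higher by 0.49 (SE 0.10, adjusted p = 0.00194) with overlapping groups, and it can share probe signal with its close copies. Pla1a, a phosphatidylserine phospholipase of the same branch as Liph, had mean levels of 8.61 ± 0.19 in ChREBP livers and 9.31 ± 0.12 in GFP livers (difference -0.70, SE 0.09, adjusted p = 3.26e-05). Lipi, another phospholipase of that branch, missed the threshold (-0.11, adjusted p = 0.0547) but passed in 5 of 23 alternatives. Its groups did not overlap (3.58 to 3.67 in ChREBP livers, 3.68 to 3.82 in GFP livers), at levels below the 10th percentile of gene means (4.22).

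The differences of the pancreatic relatives rested on 2 arrays. Pnliprp1 had levels of 10.93 and 10.80 on ChREBP 4 and ChREBP 5, and Pnliprp2 had 11.62 and 11.24, and these are the arrays on which the acinar markers were high. Their differences of 2.33 (limma adjusted p = 0.137) and 2.08 (adjusted p = 0.161) became 0.30 and 0.15 without those arrays. Lipn differed from them in this, since its values on the same arrays (8.49 and 8.09) lay inside the range of the other ChREBP arrays (7.89 to 8.64).

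**Figure D4:**
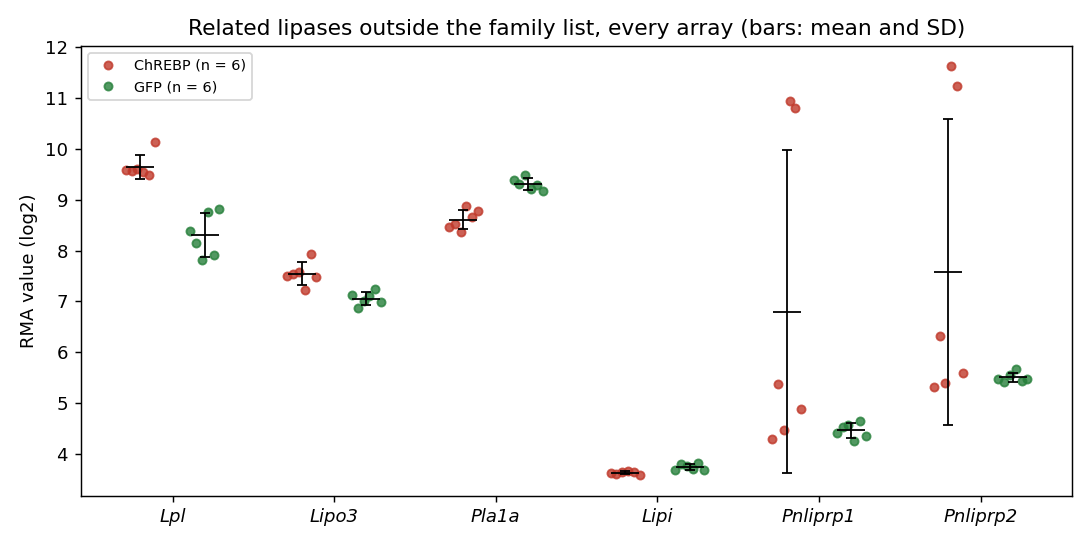
RMA value (log2, vertical axis) of 6 related lipases on every array, ChREBP arrays in red to the left of GFP arrays in green, with bars for the mean and SD (n = 6 each). Lpl is higher and Pla1a lower in every ChREBP array, and Pnliprp1 and Pnliprp2 are high on ChREBP 4 and ChREBP 5 alone.

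Secreted lipases such as Lipg and Lpl need helpers to fold, are anchored on the cell surface and are cleaved or inhibited there. Of 15 measured partners, 1 rose and 3 fell, a share near that of all genes, and the median difference was -0.03. Sel1l, an endoplasmic reticulum protein needed for Lpl to leave that compartment, had mean levels of 9.63 ± 0.05 in ChREBP livers and 10.19 ± 0.15 in GFP livers (difference -0.56, SE 0.07, limma adjusted p = 2.12e-05). Furin, a convertase that cleaves endothelial lipase, was higher by 0.50 (SE 0.09, adjusted p = 0.000538). The surface proteoglycan gene Sdc1 fell by 0.21 (adjusted p = 0.0105) and the convertase gene Pcsk5 fell by 0.13 (adjusted p = 0.0316), which was lost in 10 of 24 alternatives. The folding factor Lmf1 (-0.05), the Lpl anchor Gpihbp1 (0.18) and the inhibitors Angptl4 (-0.24) and Angptl8 (-0.08) did not pass. Angptl4 passed in 4 of 24 alternatives and Gpihbp1 in 3.

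Lipa works in the lysosome, and a list of 29 other lysosomal genes was measured. The list holds hydrolases, their activators, membrane and transport proteins, proton pump subunits and transcription factors. Of the 29 genes, 11 rose and 5 fell (55.2% past the threshold, beside 27.0% of all genes), and the median difference was 0.09. Higher were the protease genes Ctss (0.85, SE 0.05, limma adjusted p = 4.42e-08) and Ctsd (0.43, SE 0.04, adjusted p = 5.16e-06), the saposin precursor gene Psap (0.46, SE 0.05, adjusted p = 4.97e-06) and the proton pump subunit gene Atp6v0d2 (2.14, SE 0.21, adjusted p = 4.71e-06). Lower were Gaa (-0.38), Ctsz (-0.25), Neu1 (-0.24), Atp6v0d1 (-0.21) and Lamp2 (-0.18). The difference of Lipa (0.26) lay between these. Tfeb (0.09) and Tfe3 (0.04), transcription factors of lysosomal genes, did not pass. Macrophage markers moved with the same contrast: 9 of 16 rose and 5 fell (87.5% past the threshold, beside 27.0% of all genes). The list averaged 8.12 to 8.36 on ChREBP arrays and 7.58 to 7.79 on GFP arrays. Mmp12 (3.70), Cd9 (2.32), Gpnmb (2.17) and Cd68 (0.74) were higher, whereas the median of Trem2 was lower (6.51 in ChREBP livers, 6.58 in GFP livers). Of resident Kupffer cell genes, Timd4 (-1.59) and Cd163 (-2.10) were lower and Cd5l (0.83) was higher. Medians of Clec4f (8.68 in ChREBP livers, 9.07 in GFP livers) and Vsig4 (10.51 and 10.79) were also lower. Lipa deviations correlated at 0.58 with the macrophage list over 12 arrays. The part of macrophages in the lysosomal values was not tested.

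The cholesteryl esters that Lipa cleaves are handled by 11 further measured genes, of which 3 rose and 2 fell beside 27.0% of all genes (median difference 0.05). Nceh1, a neutral cholesteryl ester hydrolase, had mean levels of 8.97 ± 0.13 in ChREBP livers and 8.27 ± 0.20 in GFP livers (difference 0.70, SE 0.09, limma adjusted p = 5.54e-05). The neutral lipase gene Lipe (0.31, adjusted p = 0.000742) and the sterol exporter gene Abcg1 (0.18, adjusted p = 0.0371, lost in 15 of 24 alternatives) were higher, and the sterol carrier genes Stard4 (-0.51, adjusted p = 3.60e-06) and Osbpl8 (-0.45, adjusted p = 0.000249) were lower. Cel, the bile salt-stimulated lipase of pancreas, had a difference of 2.79 that did not pass (adjusted p = 0.0965) and rested on ChREBP 4 and ChREBP 5 (11.83 and 11.67).

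**Figure D5:**
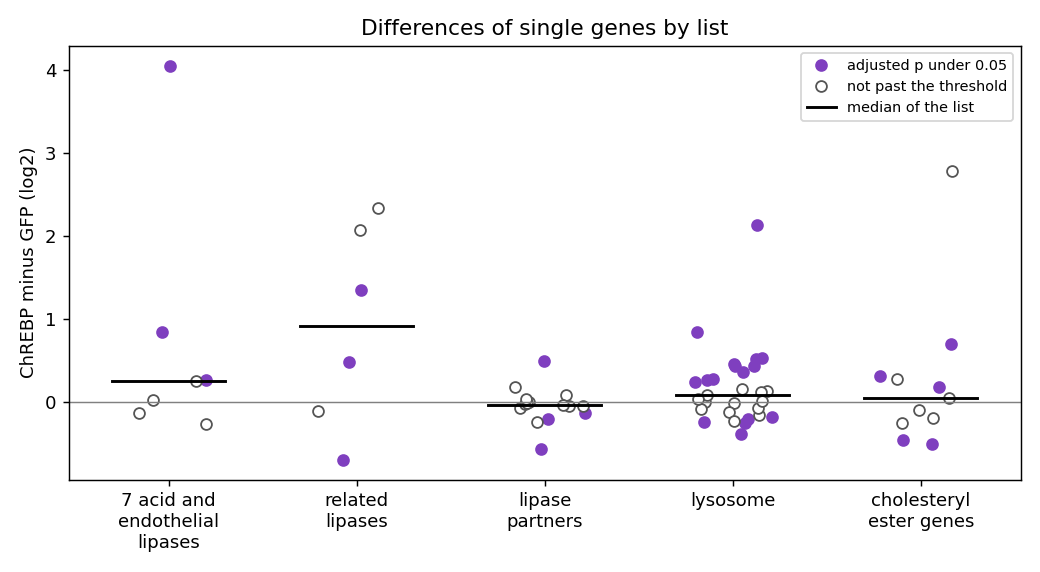
Difference of single genes (ChREBP minus GFP, log2, vertical axis) for the 7 lipases, the related lipases, the lipase partners, the lysosomal genes and the cholesteryl ester genes. Filled points are past a limma adjusted p of 0.05 and lines are list medians, with Lipn at 4.05 above every other gene shown.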

How the data were processed

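The authors deposited 1 table of log2 values for 12 liver arrays. RMA and Partek are listed, with no version, in the submitters' processing notes. In RMA, background is corrected, arrays are quantile-normalized and probes are summarised by median polish. Phf2 arrays, not these, are the subject of the study's array methods, which served only as a guide. The deposited log2 values had array medians of 5.96 to 6.05 and were not centred per gene. Quantile normalization limits shifts shared by most genes, and no depth applies to arrays, whose number limits precision.

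Of 35556 rows, 21789 carried 1 gene symbol in the platform annotation, 1621 several and 12146 were unlisted. Symbols were updated by Entrez ID through the RefSeq table of GRCm38.p6 (21698 matched). The brightest row stood for a gene, giving 19938 genes with no filter. Groups came from the sample titles, which call the samples biological replicates. The test was limma's moderated linear model (version 3.58.1, R 4.3.3), two-sided and without covariates. P-values were adjusted over all genes by Benjamini and Hochberg's method, with a threshold of 0.05.

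The 7 lipases, the gene lists and the tests were chosen with earlier results of these data known. Named were Mlxipl, the 7 lipases, the measured relatives, up to 4 genes of each other list by smallest p and those needed to complete a count, the annotated genes between the outermost lipases of the chromosome, and the genes most like Lipn (5 by each measure), Lipa and Lipg (3 each). Predicted genes, small RNAs and receptor segments were left out of the likeness ranking. Listed relatives and partners with no single-symbol row were not analysed here. Same-numbered samples of the groups share only a number. Scan dates were not used here, so no batch was tested.

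Data for ChREBP against GFP were simulated with independent normal noise at each gene's own SD, with 200 of 19938 genes changed. Recovered were 95.5% of 1.5-fold, 100% of 2-fold and 100% of 4-fold changes. Of the calls, 3.43% were false, and 0 genes were called with no change. Such noise lacks the signal that genes share on some of these arrays, and 27.0% of genes passed in the data. The rates therefore need not hold for the arrays themselves. Results were recomputed with median centring, quantile normalization applied again, a filter on the dimmest 25%, mean of rows, trended and robust moderation, array weights, analysis of variance, a replicate block, all rows tested, and arrays left out singly or in sets.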

Additional observations from a re-analysis of the deposited data

Results flagged for a closer look

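Within a group of 6 arrays, 1 array stood far from the other 5 in 22 of 184 groups of values (92 genes whose difference was recomputed under the alternatives, 2 groups each). Chance would give about 1 in 20 for genes chosen without sight of their values. Some of these genes were named after their values were seen, and many flags share GFP 6, so no excess is read from the count. One of the 22 was a lipase of the family: Lipm on GFP 6, at 5.13 with the next GFP array at 4.44. On the same array lay the highest values of Sprr1a (8.88, next 6.64), Ctrb1 (6.90, next 5.92), Epcam (5.90, next 5.43) and Muc1 (6.98, next 5.98) among GFP livers, and of the epidermal genes Krt5 (7.79, next 5.33), Krt14 (7.03, next 6.22), Lor (8.65, next 5.32), Asprv1 (9.04, next 5.87) and Cers3 (5.65, next 5.19). On ChREBP 6 lay the highest ChREBP values of Lpl (10.13, next 9.61), Fabp4 (10.46, next 10.26) and Casp14 (4.85, next 4.70). On ChREBP 5 lay the highest Lyve1 (9.19, next 8.50) and Muc1 (8.68, next 6.90) and the lowest Atp4a (5.15, next 5.52) of the ChREBP livers. On ChREBP 3 lay the highest Pnpla1 (5.22, next 5.10) and Lor (5.27, next 4.93) and the lowest Krt5 (4.91, next 5.09) of the ChREBP livers, and on ChREBP 2 the highest Cers3 (5.22, next 4.87) and Cd68 (9.56, next 9.29). Tfeb was highest among GFP livers on GFP 3 (6.11, next 5.95). Lipn, Lipa, Lipk, Lipf, Lipg and Liph had no such array in either group.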

How the results depend on the processing

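The counts of genes past the threshold and the differences of 92 genes were recomputed under up to 24 alternatives. The count of lipases past the threshold was 3 under all of them. The count over all genes was 5375 and ranged from 4123 to 5844, or 4656 to 5632 with 1 array left out. With the replicate block it was 4439, and same-numbered arrays deviated together weakly (r of -0.06 to 0.25, with 1 of 6 closest to its own number). The block changed no call of a lipase. With ChREBP 6, GFP 4 and GFP 6 left out together, a choice made after seeing the data, 2 partners passed in place of 4, and with 1 array left out 3 to 6 did. The difference of Lipf turned to -0.014 without ChREBP 2, -0.032 without ChREBP 4, -0.0039 without GFP 4 and -0.014 without ChREBP 4 and ChREBP 5, in a range of -0.032 to 0.065 with 1 array left out. The cause was not tested. Without GFP 6, the differences of Krt14, Lor and Asprv1 turned to 0.045, 0.0054 and 0.052. They were 0.053, 0.019 and 0.067 without ChREBP 6 and GFP 6, and Krt14 and Asprv1 were 0.022 and 0.031 without GFP 4 as well. With 1 array left out, Krt14 ranged from -0.20 to 0.045, Lor from -0.79 to 0.0054, Asprv1 from -0.66 to 0.052, Tfe3 from -0.015 to 0.084, Krt10 from -0.019 to 0.066 and Angptl8 from -0.23 to 0.014. Tfe3 was -0.014 after repeated quantile normalization, and Angptl8 was 0.047 without ChREBP 6 and GFP 6 and 0.15 without GFP 4 as well. Epidermal genes past the threshold numbered 3 to 6, stomach markers 1 to 2 and endothelial markers 1 to 3. Of 92 differences, 61 kept their direction and their side of the threshold under every alternative. The 25% dimmest genes, which hold Lipk, Lipm, Lipf and Liph, have no value where they are left out. No probe intensities or detection calls were used here, which limits what low values show.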
